A study of Mus musculus with 10 samples.

Results

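This account covers 6 genes of growth and repair signalling in the mouse colon, namely Met, Tgfbr1, Smo, Lpar1, Il11ra1 and Wnt2. They were taken by symbol from a list, out of 55416 rows in the deposited count tables. The label given to the set spoke of receptors, and 5 of the 6 encode receptors, whereas Wnt2 encodes a secreted ligand. All 6 lie inside the 2 stretches of the mouse genome (build mm10) where counts follow gene names, the first part of chromosome 4, whose last row ends at 59894924, and that of chromosome 6, whose last row ends at 30175126. Together they hold 1098 rows. Of these, 352 passed the expression filter of the test over all libraries, among them 5 of the 6 genes. Wnt2, at 26 counts over all libraries, did not pass and is too low to judge.

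The study sequenced RNA of colon from mice lacking Vista and from wild-type (WT) mice. Vista, the product of Vsir, is a checkpoint protein that restrains T cells. All mice had 2% dextran sulfate sodium (DSS) in their drinking water for 7 days, which injures the colonic epithelium, and no library without DSS was analysed here. There were 5 knockout and 5 WT libraries, in a first table with 3 of each and a second table with 2 of each. The labels named the genotype of knockouts 1 to 3 a knockdown and that of knockouts 4 and 5 Vista-/-, and both were treated as 1 knockout group. The labels give no strain, age or sex. Biological replicates are stated for 3 per group in the design text. For the 4 libraries of the second table no source says that they came from separate animals, so the spread that the tests use may be partly technical. Their titles give each its own identifier, in a form like that of the first table, without stating what it names.

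Met is the receptor tyrosine kinase for hepatocyte growth factor, which mesenchymal cells release and which drives epithelial cells to migrate and divide. Tgfbr1 is the signalling subunit of the TGF-beta receptor, whose output through SMAD proteins restrains epithelial growth and promotes matrix deposition. Smo carries the Hedgehog signal at the primary cilium, and in the gut it is mainly mesenchymal cells that receive this signal from the epithelium. Lpar1 is a G protein-coupled receptor for lysophosphatidic acid, a lipid that promotes migration and contraction. Il11ra1 is the interleukin-11 binding subunit of a receptor that signals through gp130 and STAT3, and Wnt2 is a ligand of the Wnt pathway that maintains crypt stem cells.

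Library totals ran from 3691322 to 4071238 counts. Levels are given as CPM, a gene's counts per 1000000 counts of its library. The totals include rows outside the stretches, where the rows of Eef2 and Epcam held only 1 and 2 counts over all libraries. CPM and levels derived from it are thus relative to the counts as deposited. They can lie above the true levels, by a factor not known here. A principal component analysis used log2 CPM of the rows past the expression filter, with library totals rescaled by edgeR (TMM). Its leading axis took 37.6% of the variance. On it WT libraries 4 and 5 stood apart at 44.4 and 48.3, against −25.4 to 5.88 for the other 8. No 2 libraries agreed within counting noise, the closest pair being WT 2 and WT 3 whose chi-square averaged 4.06 per row. Vsir itself, on chromosome 10 outside the stretches, held 27 to 97 counts in knockout and 0 to 82 in WT libraries. Since names do not follow counts there (Actb, the beta-actin gene, had 75 counts over all libraries), its row does not check the genotype labels. Within 1 Mb of Met, 7 of 10 other protein-coding rows held 500 counts or more over all libraries. The share was 88.2% around Tgfbr1, 81.8% around Wnt2, 61.8% around Smo, 52.6% around Lpar1 and 44.0% around Il11ra1, against 60.5% of protein-coding rows inside the stretches and 21.8% outside. Around Il11ra1 and Lpar1 the share was thus below that of the stretches as a whole. The stretches were taken as places where counts follow names, so a higher share inside than outside was at least partly fixed by that choice. These shares are therefore no separate check on the names of the 6 rows.

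Levels of different genes were compared per length, as CPM per kilobase of exon (RPKM). Lpar1 stood at 40.0 ± 4.92 RPKM and Met at 38.8 ± 7.03 (SD, n = 10 libraries), and these neighbours in the order did not differ beyond their spread. Tgfbr1 followed at 26.1 ± 4.27, Il11ra1 at 23.6 ± 5.05 and Smo at 18.1 ± 3.12 RPKM, again with neighbouring ranges that overlapped. Lpar1 lay between 31.9 and 48.9 RPKM and Smo between 12.4 and 23.5, so the highest and lowest of the 5 did not overlap. Wnt2 stood at 0.300 ± 0.216 RPKM, below every library of the other genes.

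**Figure D1:**
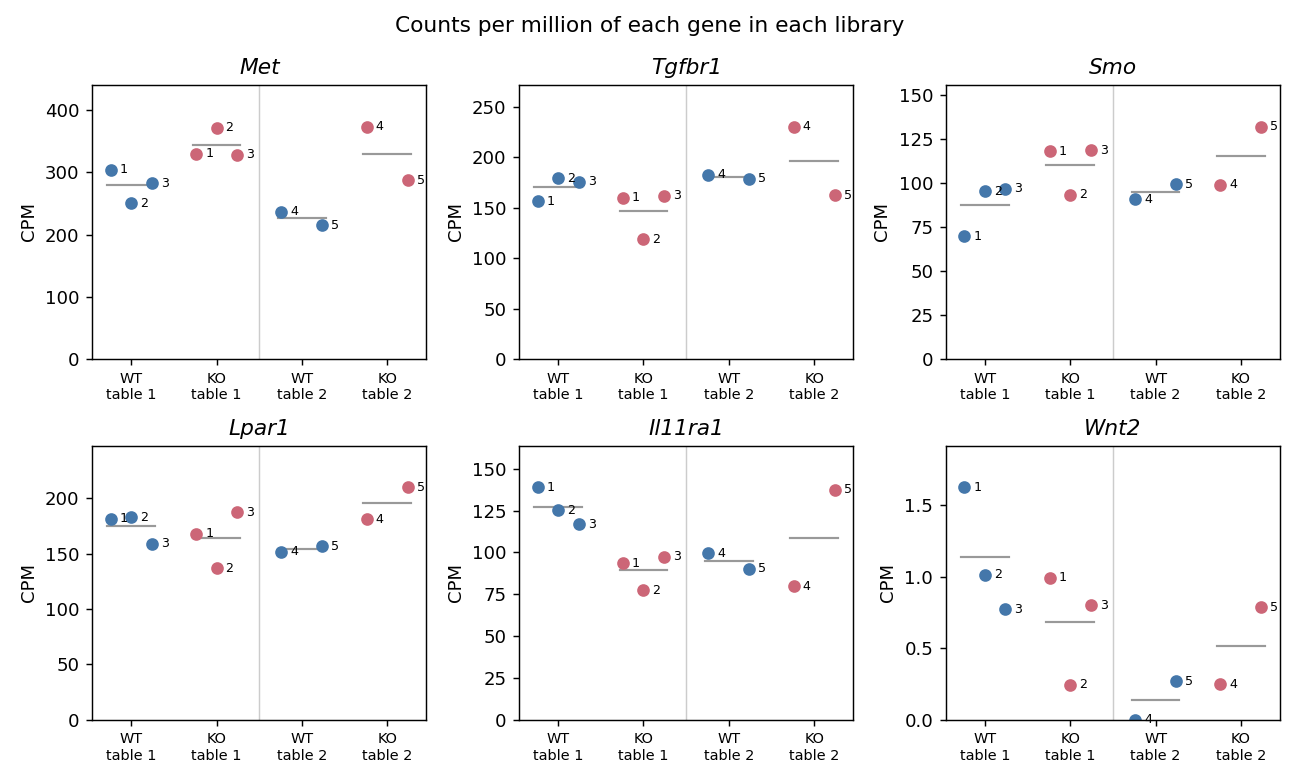
CPM (y axis, from 0, with its own scale in each panel) of the 6 genes in WT (blue) and Vista knockout (red) libraries of each deposited table. Points are single libraries with their replicate number and grey lines are means. Met is higher in every knockout library than in any WT library of the same table, while Il11ra1 is lower in the knockouts of the first table, and Wnt2 is at most 1.62 CPM. The share of all rows ordered in such ways was not counted.

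Met was higher in knockout colons. The gene (ENSMUSG00000009376; chromosome 6, 17463800 to 17573980, plus strand) shares no exon bases with another annotated gene. Knockout libraries 1 to 5 held 329.9, 371.9, 328.4, 373.5 and 287.3 CPM, and WT libraries 1 to 5 held 304.7, 251.0, 283.0, 237.2 and 215.4 CPM. Within each table every knockout library lay above every WT library, but across tables knockout 5 lay below WT 1. How many of all rows separate in this way was not counted. With so few libraries, such an order is description only, here and for the genes below. The means were 338 ± 35.9 CPM in knockout and 258 ± 35.7 in WT (SD, n = 5 each). With the table as a covariate, edgeR gave a log2 fold change (knockout over WT) of 0.42 ± 0.11 (SE), or 1.34-fold, and an adjusted p of 0.0416.

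Met was the only one of the 5 tested genes that differed over all 10 libraries. In that comparison 5.63% of all rows tested were called, and 9.09% of the 352 rows in the stretches. The median log2 fold change of the 5 genes was 0.11, against 0.019 over all rows tested. In the first table alone Met had 0.33 ± 0.12 with an adjusted p of 0.106, and in the second 0.55 ± 0.18 with 0.255. These values point the same way, and the interaction of genotype and table gave an adjusted p of 0.712.

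The call of Met lay close to the threshold. Of 20 alternative settings, all 20 kept Met higher in the knockout, with log2 fold changes of 0.29 to 0.55, and 9 kept it past the threshold. The call of edgeR ended on leaving out knockout 1, 2 or 4 or WT 2, 3, 4 or 5, where the adjusted p was 0.0686, 0.105, 0.0772, 0.104, 0.0825, 0.101 and 0.108 in that order. Without both WT 4 and WT 5, the libraries that stood apart, and without the covariate, the value was 0.29 with an adjusted p of 0.22.

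**Figure D2:**
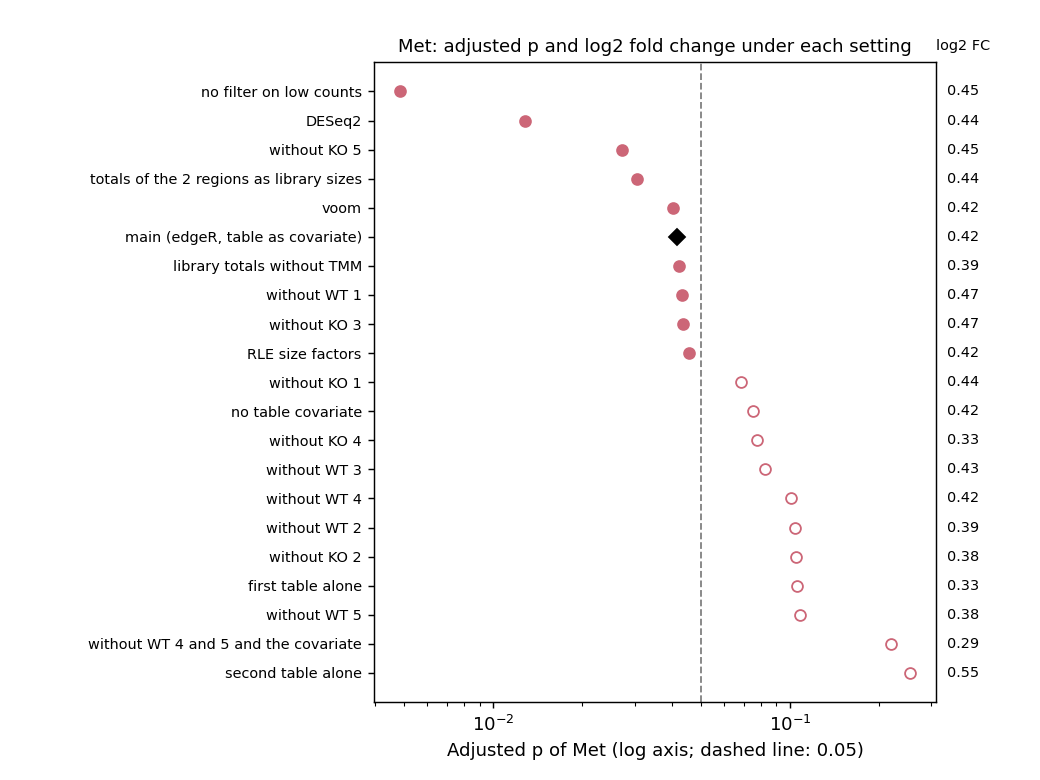
Adjusted p of the genotype effect on Met (x axis, logarithmic) under each setting (y axis), with the log2 fold change printed at the right. Filled points lie below the dashed threshold of 0.05, and the diamond is the value reported, 0.0416. The fold changes stay between 0.29 and 0.55 while the adjusted p ranges from 0.00485 to 0.255.

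Met is known as an epithelial receptor, so the epithelial marker genes inside the stretches are given beside it. The cadherin gene Cdh17 was at 3393 ± 324 CPM in knockout and 3372 ± 201 in WT, a log2 fold change of 0.04 with an adjusted p of 0.839 in edgeR. Of the others, 2 fell, the chloride channel gene Cftr by 0.69 and the glycosyltransferase gene Galnt12 by 0.59 on the log2 scale (edgeR, adjusted p 0.031 and 0.0227). Spink4 had −0.11 and Klf4 0.21, neither called (edgeR, adjusted p 0.822 and 0.476). The 2 called of 5 stand beside 5.63% of all rows and 9.09% of those in the stretches. The summed level of the 5 epithelial markers (Cdh17, Spink4, Klf4, Cftr and Galnt12) ran from 6819 to 9817 CPM in knockout and from 7650 to 10380 in WT libraries, and none of the 5 was at 0. The other markers of that list, such as Epcam, lie outside the stretches and were not used. In bulk tissue, fewer cells of a type and less RNA per cell cannot be told apart.

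The genes next to Met on chromosome 6 did not pass the test. Cav1, the caveolin gene that lies before it, had a log2 fold change of 0.05, Tes 0.08, Capza2, an actin capping subunit that lies after it, 0.14, and St7 −0.17. Their adjusted p values in edgeR were 0.353 to 0.941. Sdcbp and Klf4, the 2 other genes of the list that holds Met, had 0.17 and 0.21 and did not pass either. Capza2 was at 813 ± 80.7 CPM in knockout and 752 ± 39.2 in WT. Over the 10 libraries, the rows most like Met among 351 named rows in the stretches were the predicted gene Gm5873 (Pearson r of log2(CPM + 1) 0.859), Lyn, a Src family kinase of immune cells (0.845), and Tstd3 (0.844). Such values include what the libraries share, among it the genotype, the depth and the 2 libraries that stood apart. A row picked for following Met tends to differ by genotype as Met does, so its genotype value is no separate evidence. Gm5873 had a log2 fold change of 0.84 (edgeR, adjusted p 0.0219) and Tstd3 had 0.16 (0.284). Lyn was at 359 ± 77.9 CPM in knockout and 248 ± 72.3 in WT, with a log2 fold change of 0.61 and an adjusted p of 0.0717 in edgeR. It passed with DESeq2. WT 4 and WT 5, the lowest libraries for Met, were also lowest in the summed B cell markers Pax5, Cd72 and Bach2, at 30.1 and 25.2 CPM against 118 to 291 CPM elsewhere. Over all libraries none of these 3 markers was called by edgeR, DESeq2 or voom, and none had an unadjusted p under 0.05 in edgeR. By table they had −0.70 to −0.85 in the first, where Bach2 was called, and 2.33 to 3.73 in the second, where Pax5 and Cd72 were. The interaction passed for all 3, with adjusted p values of 0.00317 to 0.00567. The first table does not hold WT 4 and WT 5, and there Met had 0.33 and was not called (edgeR, adjusted p 0.106). The part of these B cell values in the Met result was not tested.

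Tgfbr1 did not differ by the test. The gene (ENSMUSG00000007613) spans 47353222 to 47414931 on chromosome 4, plus strand. Knockout libraries 1 to 5 held 160.0, 118.9, 162.0, 230.3 and 162.4 CPM, and WT libraries 1 to 5 held 156.4, 179.4, 175.7, 182.6 and 178.8 CPM. The WT libraries lay close together and inside the range of the knockouts, whose lowest was knockout 2 and highest knockout 4. The means were 167 ± 40.1 CPM in knockout and 175 ± 10.5 in WT. The log2 fold change was −0.05 ± 0.12 with an adjusted p of 0.809 in edgeR, and −0.18 ± 0.12 and 0.12 ± 0.20 in the first and second tables. Without knockout 2 the sign turned, to 0.014.

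Another 5 genes of the TGF-beta list were tested inside the stretches, and none passed over the 10 libraries, by edgeR, DESeq2 or voom. The kinase gene Map3k7, which TGF-beta activates, was at 269 ± 25.4 CPM in knockout and 260 ± 5.40 in WT, with a log2 fold change of 0.08. The collagen genes Col1a2 and Col15a1 had −0.09 and −0.41, Reck, an inhibitor of matrix metalloproteases, had −0.11, and Cav1 0.05. Of these, Col1a2, Reck and Cav1 had opposite signs in the 2 tables, so their values over all libraries hide a spread. They had −0.53, −0.64 and −0.51 in the first and 0.56, 0.67 and 0.89 in the second, none called by edgeR. Over all libraries, 1 gene of the list had an unadjusted p under 0.05 in edgeR, Col15a1, with an adjusted p of 0.138. The rows most like Tgfbr1 were Dpy19l4 (r 0.845), Mdfic (0.838) and Inip (0.819).

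Smo was higher in the knockout by its means, without passing the test. The gene (ENSMUSG00000001761) spans 29735503 to 29761365 on chromosome 6, plus strand. Knockout libraries 1 to 5 held 118.2, 93.58, 118.7, 99.24 and 132.2 CPM, and WT libraries 1 to 5 held 69.81, 95.43, 96.98, 91.05 and 99.42 CPM. WT 1 lay lowest of all, and knockouts 2 and 4 lay within the range of the WT libraries. The means were 112 ± 15.8 CPM in knockout and 90.5 ± 12.0 in WT. The log2 fold change was 0.34 ± 0.11 with an unadjusted p of 0.0126 and an adjusted p of 0.107 by edgeR. The first table gave 0.37 and the second 0.28, the latter being 0.051 without knockout 5 and 0.48 without knockout 4. The value was positive in 20 of 20 alternatives and called in 0 of them. Without WT 4, WT 5 and the covariate together it was 0.38.

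Smo acts at the cilium, and 2 ciliary genes of the Hedgehog list were tested beside it. Anks6, which encodes a protein of the ciliary inversin compartment, stood at 13.5 ± 3.28 CPM in knockout and 41.5 ± 26.8 in WT. It fell by 1.39 on the log2 scale (edgeR, adjusted p 0.0325). Its genotype effect differed between the tables, at −0.63 and −2.47, with an adjusted interaction p of 0.0202. Invs, which encodes inversin itself, had −0.12 and an adjusted p of 0.598. The Hedgehog ligands, the Ptch receptors and the Gli factors lie outside the stretches and were not used here. The rows most like Smo were the predicted gene Gm12919 (r 0.853), Nfx1 (0.811) and the DNA repair gene Nbn (0.798).

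**Figure D3:**
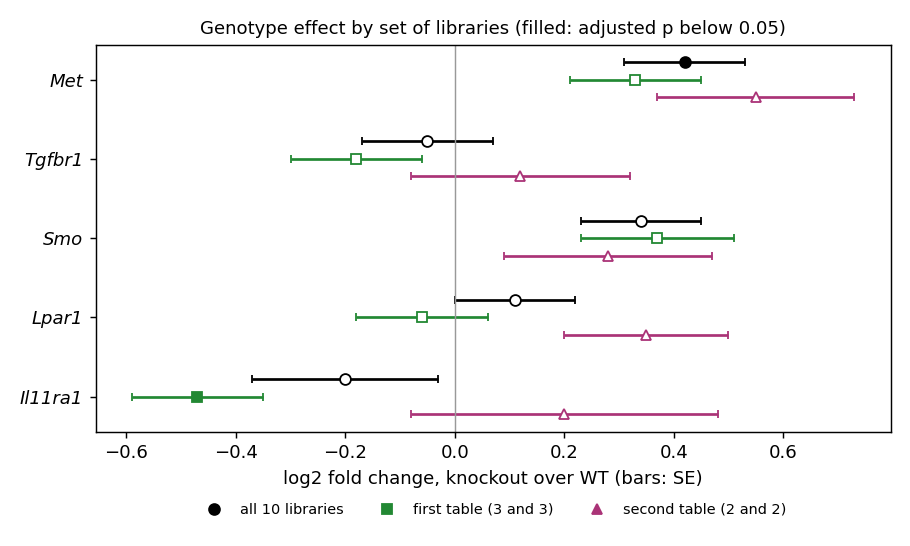
Log2 fold change of knockout over WT (x axis, bars are SE) for the 5 tested genes (y axis), over all 10 libraries (black circles), in the first table (green squares) and in the second (purple triangles). Filled symbols have an adjusted p below 0.05, which holds for Met over all libraries and Il11ra1 in the first table. Met and Smo lie right of 0 in all 3, while Tgfbr1, Lpar1 and Il11ra1 change side between the tables.

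Lpar1 did not differ by the test. The gene (ENSMUSG00000038668) spans 58435255 to 58553898 on chromosome 4, minus strand. Knockout libraries 1 to 5 held 167.9, 136.8, 187.1, 181.2 and 209.6 CPM, and WT libraries 1 to 5 held 181.6, 182.7, 159.0, 151.8 and 156.6 CPM. In the first table the genotypes overlapped, and in the second both knockouts lay above both WT libraries. The means were 176.5 ± 26.8 CPM in knockout and 166 ± 14.7 in WT, and the log2 fold change was 0.11 ± 0.11 with an adjusted p of 0.571 in edgeR. The first table gave −0.06 ± 0.12 and the second 0.35 ± 0.15, and the adjusted p of their difference was 0.350. Without knockout 5 the value was 0.03, without WT 4 it was 0.057, and without WT 4, WT 5 and the covariate together it was 0.032.

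Of the signalling genes downstream of such receptors, Gng11, a G protein gamma subunit, fell by 1.03 on the log2 scale (edgeR, adjusted p 0.0132). It stood at 26.7 ± 9.36 CPM in knockout and 55.0 ± 10.7 in WT, and was also in the endothelial marker list, whose other members Cav1 and Cav2 had 0.05 and −0.04 over all libraries. Their values had opposite signs in the 2 tables: Cav1 had −0.51 in the first and 0.89 in the second, neither called, and Cav2 fell by 0.57 in the first (adjusted p 0.0441) against 0.77 in the second (0.114). For Cav2 the interaction passed, with an adjusted p of 0.0113, and for Cav1 it was 0.148. Gng10, with 13 counts over all libraries, was too low to test. Ecpas and Musk, genes beside Lpar1, had 0.04 and −0.13. The rows most like Lpar1 were Cped1 (r 0.877), Cav1 (0.836) and Runx1t1 (0.819).

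Il11ra1 has near-identical copies, which bear on what its row counts. The gene (ENSMUSG00000073889) spans 41699989 to 41769474 on chromosome 4, plus strand, and the copies Gm13305 (chromosome 4 from 42158842 to 42168603) and Il11ra2 (chromosome 4 from 42656355 to 42661893) lie on the minus strand. Over 1299 coding bases Il11ra1 differed from each copy at 13 positions, and the copies did not differ from each other. The labels gave reads of 50 bases for the second table. The window of that length with the most differences, coding bases 650 to 699 counted from the start codon, is printed 5′ to 3′ from the GENCODE M21 transcripts (mm10), with the differing positions in capitals:
Il11ra1: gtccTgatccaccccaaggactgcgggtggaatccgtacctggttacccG
Il11ra2: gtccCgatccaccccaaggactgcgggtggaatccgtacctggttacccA
Gm13305: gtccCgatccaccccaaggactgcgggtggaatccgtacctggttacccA

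Even this window had only 2 differing bases. Of the distinct windows of 50 bases in Il11ra1 transcripts, 46.3% also occurred in a transcript of a copy, and 40.1% when only its protein-coding transcripts were taken. The share was 0 for Met, Lpar1 and Wnt2, 0.0153% for Tgfbr1 and 1.56% for Smo. The row of Gm13305 held 0 counts in every library and that of Il11ra2 held 0 to 8, 21 in all, against 4067 for Il11ra1. How the authors' counting treated reads that map to more than 1 place was not given in the sources used here, so the level of Il11ra1 is uncertain.

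Il11ra1 fell in the first table and did not pass the test in the second. Knockout libraries 1 to 5 held 93.4, 77.37, 97.55, 79.74 and 137.5 CPM, and WT libraries 1 to 5 held 138.8, 125.1, 117.0, 99.38 and 90.21 CPM. Knockouts 1 to 3 all lay below WT 1 to 3, whereas in the second table knockout 5 lay above both WT libraries and knockout 4 below both. In the first table the means were 89.4 ± 10.7 CPM in knockout and 127 ± 11 in WT (SD, n = 3 each). There the log2 fold change was −0.47 ± 0.12 with an adjusted p of 0.0433 by edgeR. Of the 5 genes 1 was called there, where 6.06% of all rows and 10.6% of those in the stretches were. Leaving out any 1 of these 6 libraries ended that call, with adjusted p values of 0.0629 to 0.124.

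In the second table Il11ra1 had 0.20 ± 0.28 with an adjusted p of 0.832. None of the 5 genes was called there by edgeR, DESeq2 or voom, with 1 at an unadjusted p under 0.05. There edgeR called 0.856% of all rows and 1.4% of those in the stretches. The interaction of genotype and table for Il11ra1 was 0.67 ± 0.28, with an unadjusted p of 0.0358 and an adjusted p of 0.291, so a difference between the tables was not shown. By interaction, edgeR and DESeq2 called none of the 5 genes, and 1 had an unadjusted p under 0.05. Here edgeR called 2.05% of all rows and 3.12% of those in the stretches. Over all 10 libraries Il11ra1 had −0.20 ± 0.17 with an adjusted p of 0.494. Without knockout 5 it was −0.41 with an adjusted p of 0.0294, and without WT 4, WT 5 and the covariate together it was −0.37 with 0.239.

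Il11ra1 is known mainly from stromal cells, so the fibroblast markers inside the stretches are given beside it. The summed level of Col1a2, Col15a1, Sgce, Svep1 and Reck, none of them at 0, was 771.5 to 996.3 CPM in knockouts 1 to 3 and 1051 to 1520 in WT 1 to 3. In the second table it was 1075 to 1422 CPM in knockout and 802.3 to 915.9 in WT. For this sum the genotypes thus did not overlap in either table and lay in opposite order. How often other rows or sums do so was not counted. Most of the sum was Col1a2, on average 788 of 1049 CPM in knockout and 864 of 1128 in WT. For Col1a2 the interaction of genotype and table was not called (edgeR, adjusted p 0.099). None of the 5 markers passed over all 10 libraries by edgeR, DESeq2 or voom. An unadjusted p under 0.05 in edgeR was held by 2, Svep1 (log2 fold change 0.62) and Col15a1 (−0.41). These kept their sign in both tables, Svep1 with 0.15 and 1.35 and Col15a1 with −0.61 and −0.13. Col1a2, Sgce and Reck changed sign between the tables. In the first table Il11ra1 and the marker sum were both lower in every knockout than in every WT library. In the second, knockout 5 was the higher of the knockouts in Il11ra1 and knockout 4 in the sum. The part of stromal content in the values of Il11ra1 was not tested.

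Other genes of the interleukin-6 family were few inside the stretches. Cntfr, the receptor subunit for ciliary neurotrophic factor that lies just before Il11ra1, held 23 to 39 counts per library and had a log2 fold change of −0.06 ± 0.20 with an adjusted p of 0.873 in edgeR. Ccnc, the cyclin C gene placed in the same list, had 0.10. The rows most like Il11ra1 were Pnisr (r 0.886), Klhl32 (0.885) and Pot1a (0.882).

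Wnt2 was nearly silent at this depth. The gene (ENSMUSG00000010797) spans 17988940 to 18030585 on chromosome 6, minus strand, between Met and Cftr, which held 11572 and 18529 counts over all libraries. Knockout libraries 1 to 5 held 4, 1, 3, 1 and 3 counts and WT libraries 1 to 5 held 6, 4, 3, 0 and 1. No fold change is given, and a difference between the genotypes was not detectable. A count of 0 in WT 4 allows up to 0.806 CPM, for counting error only. The other Wnt ligand inside the stretches, Wnt16, had 8 counts in all. Another 6 genes of the Wnt list were tested and none passed by edgeR, DESeq2 or voom, with 1 at an unadjusted p under 0.05 in edgeR. Among them Tspan12, a co-receptor of the Norrin branch, had a log2 fold change of −0.32, Mdfic, a regulator of TCF factors, 0.08, and Ctnnal1, a catenin-like gene, 0.33 with an adjusted p of 0.120.

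**Figure D4:**
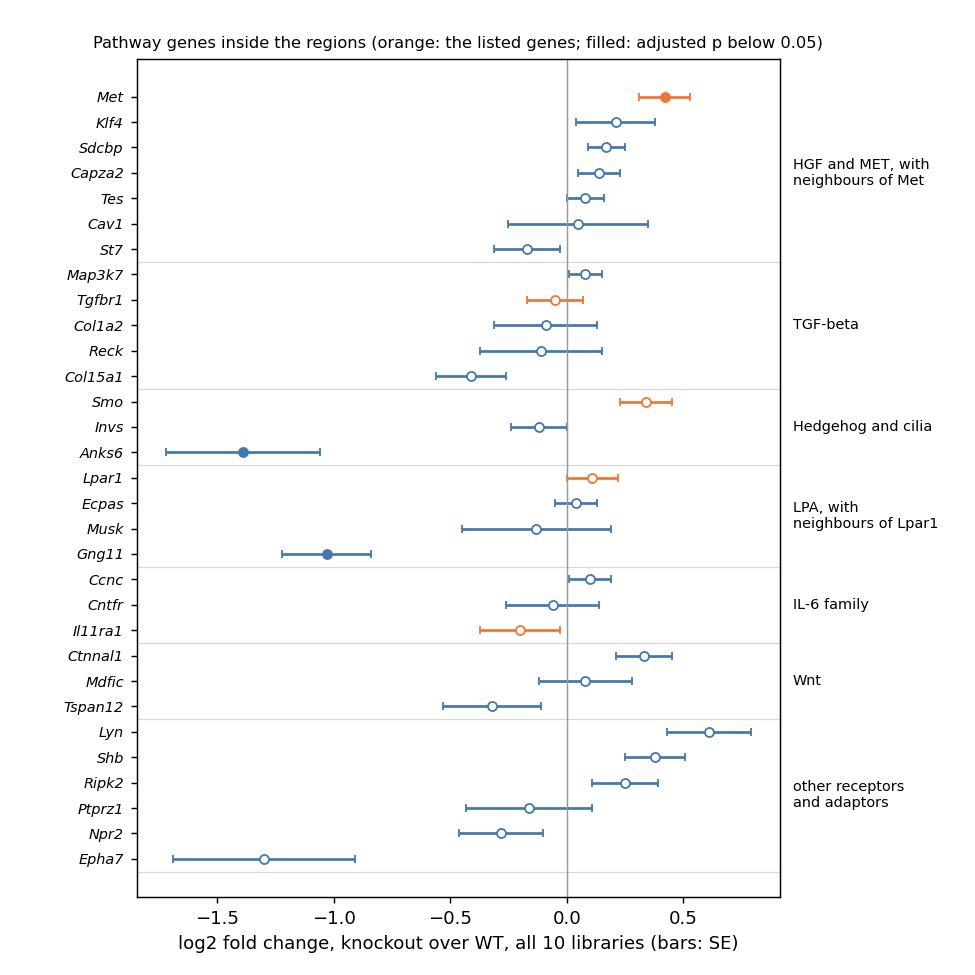
Log2 fold change of knockout over WT over all 10 libraries (x axis, bars are SE) for the tested genes of 7 pathway lists inside the stretches (y axis), each gene shown once. The 5 listed genes that were tested are orange and filled symbols have an adjusted p below 0.05. Met at 0.42 is filled on the right, and Gng11 at −1.03 and Anks6 at −1.39 are filled on the left.

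Over the 7 pathway lists together, 33 other genes lay inside the stretches and 26 were tested. Of these, 0 rose and 2 fell, Anks6 and Gng11, by edgeR, and 7 had an unadjusted p under 0.05. The 2 called of 26 are near the share called over all rows, 5.63%, and over the rows in the stretches, 9.09%. No such share is given here for an unadjusted p under 0.05, so the 7 cannot be set against all rows. DESeq2 also called Lyn, and voom also called Epha7. The median log2 fold change was −0.01, with 13 above 0. Among other growth receptors, Epha7, an ephrin receptor gene, stood at 23.2 ± 16.5 CPM in knockout and 55.8 ± 9.59 in WT, with a log2 fold change of −1.30 and an adjusted p of 0.0759 in edgeR. Npr2, the receptor gene for C-type natriuretic peptide, had −0.28 over all libraries. It fell by 0.66 in the first table (adjusted p 0.0408) and had 0.28 in the second (0.584). Shb, an adaptor of receptor tyrosine kinases, had 0.38, at 141 ± 17.6 against 111 ± 15.9 CPM and an adjusted p of 0.111. It rose by 0.62 in the first table (0.0187) and had 0.02 in the second (0.985). The interaction passed for neither gene, at 0.0925 and 0.18.

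The 5 tested genes did not vary as 1 group across libraries. Pearson's r of log2(CPM + 1) between pairs of them over the 10 libraries ran from −0.36, for Met and Il11ra1, to 0.60, for Lpar1 and Il11ra1. Met and Smo, the pair with positive values in both tables, had 0.11.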

How the data were processed

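RNA of DSS-treated mouse colon was sequenced in 10 libraries. The values are raw read counts per Ensembl gene, as deposited by the authors in 2 tables of 55416 rows. Per the submitters' processing notes, HISAT2 (2.2.1 for the first table) and featureCounts 2.0.1 were used. These notes name the build GRCh38, a human assembly, for the first table and mm10 for the second. Annotation, strand setting and handling of multiply mapped reads are not stated in labels or notes, so antisense reads cannot be told apart. Reads were 50 bases long per the labels of the second table. GENCODE M21 named 52083 rows.

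CPM used column totals. Differences were tested over all rows with edgeR 4.0.16 (R 4.3.3; TMM, expression filter, quasi-likelihood test, Benjamini-Hochberg, threshold 0.05), with the table as a covariate when all libraries were used. Alternatives were DESeq2 1.42.0, voom (limma 3.58.1), other scalings, no filter, no covariate, single tables and omitted libraries. Genes named were the 6, tested list members inside the 2 stretches, and the 3 rows most correlated with each tested gene. The genes, stretches and lists were chosen with earlier results of these data known. Some lists hold genes chosen for lying near a listed gene, such as Tes, Capza2 and St7 near Met and Ecpas and Musk near Lpar1. Totals of 3691322 to 4071238 counts per library limit precision, most for Wnt2. Checks of shared sequence, of neighbouring rows and of coding differences were added after the data were seen.

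Cell type lists not described in the report were also tested inside the stretches, by edgeR over all libraries. Called were 0 of 2 smooth muscle markers and 1 of 1 T cell marker (Tox, lower). Of macrophage and neutrophil markers 0 of 1 was called (Lyn, which DESeq2 called). Of enteric neuron and glia markers 2 of 3 were called (1 higher and 1 lower). In that comparison 5.63% of all rows and 9.09% of those in the stretches were called. So few genes per list give no result for a cell type.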

Additional observations from a re-analysis of the deposited data

Results flagged for a closer look

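In 2 of 12 groups of 5 libraries, a single library stood apart from the other 4 by a gap test on CPM, and chance marks about 1 in 20 groups. Both were WT library 1. It held 156.4 CPM of Tgfbr1, below the other WT libraries at 175.7 to 182.6, and 69.8 CPM of Smo, below the others at 91.1 to 99.4. Without WT 1 the log2 fold change of Smo was 0.26 with an adjusted p of 0.222 in edgeR, and that of Tgfbr1 was −0.07 with 0.797.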

How the results depend on the processing

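Smo kept its sign and stayed uncalled in all 20 alternatives to its result over 10 libraries. Met (0.42, called) was no longer called without the table covariate (0.42), without WT 4 and 5 and the covariate (0.29), in either table alone (0.33 in the first, 0.55 in the second), and ran from 0.33 to 0.47 as single libraries were left out. Tgfbr1 turned to 0.12 in the second table alone and ran from −0.18 to 0.014 without single libraries. Lpar1 turned to −0.057 in the first table alone. Il11ra1 was called at −0.47 in the first table by itself, turned to 0.20 in the second, and ran from −0.41 (called, without knockout 5) to −0.13 without single libraries. The number of the 5 genes called over 10 libraries, 1, was 0 without the covariate, 0 without WT 4 and 5 and the covariate, 0 in the second table alone, 0 with a fold of at least 1.5, and 0 to 2 without single libraries. In the first table alone it was 1, but that was Il11ra1 and not Met. Without the filter on low counts, edgeR also called Met (0.37, adjusted p 0.037) and Smo (0.41, 0.0422) in that table. For either gene it was the only 1 of 12 alternatives there that gave a call. Within single tables, omitting 1 library gave −0.13 to 0.047 for Lpar1 in the first, and −0.15 to 0.34 for Tgfbr1 and −0.26 to 0.54 for Il11ra1 in the second, where the lone remaining library is assumed to vary like the others. For all of these changes, the cause was not tested. No paired analysis was possible because replicate numbers appear nowhere in the labels. Depth limits Wnt2, and shared sequence limits Il11ra1.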
